A study of Homo sapiens
Mus musculus with 16 samples.

Results

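Transcripts of the mouse host were compared between the xenograft tumours that had received nintedanib and those that had not, averaged over the presence of alpelisib. All 16 libraries of the series entered this comparison, 8 with nintedanib and 8 without, and 17484 of the 23337 mouse genes listed passed the filter on low values. The tumours grew from ScaBER, an established human bladder squamous carcinoma line, in athymic nude mice (Hsd:Athymic Nude-Foxn1nu). The nintedanib side held 4 libraries labelled nintedanib (40 mg/kg) and 4 labelled as the combination of nintedanib (40 mg/kg) with alpelisib (25 mg/kg). The other side held 4 libraries of vehicle and 4 of alpelisib alone (25 mg/kg). Every tumour was taken at day 14 of treatment and came from the same cell line and host strain. Nude hosts lack the thymus that makes T cells but keep NK cells, B cells and myeloid cells, and all results come from a single line of tumour cells. The stated purpose of the series was to learn what underlies the joint action of the drugs, with reads mapped to each genome on its own so that tumour and stroma could be read apart.

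Nintedanib blocks the receptor tyrosine kinases for VEGF, PDGF and FGF, whereas alpelisib blocks PI3K alpha. In growing vessels VEGF acts on endothelial cells, whose sprouting tip cells carry the Notch ligand Dll4, while PDGF from endothelium holds pericytes on the vessel wall and FGF and PDGF act on fibroblasts. Endothelial cells and pericytes together lay down a basement membrane of type IV collagen, laminin and nidogen. In a xenograft these vessels, fibroblasts and leukocytes are mouse cells, so they are read in the mouse table.

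Mouse reads numbered 3606008 to 6850491 per library, and the profiles of any 2 libraries correlated at 0.899 to 0.956. A value in the deposited table is a read count divided by 1 size factor per library, and 1 read was worth 0.653 to 1.365 units. Libraries read the 3′ ends of transcripts without molecular identifiers, so depth covers counting error only. The mouse share of all reads was 26.7% ± 4.89 with nintedanib and 24.1% ± 3.42 without (SD, n = 8 each), with ranges of 20.5% to 34.0% and 19.3% to 28.9%. The difference of 2.60 points did not pass a 2-sided exact permutation test within alpelisib levels (p = 0.225; the smallest p possible is 0.000408). Transcripts of other host tissues were high in some libraries. Nintedanib 4 had 5.0% of its mouse reads in a list of 20 skeletal muscle genes, combination 1 had 3.32% and no other library more than 0.727%. Adipocyte genes took 0.133% of mouse reads in combination 2, and 0.604%, 0.513% and 0.249% in vehicle 1, alpelisib 4 and alpelisib 2. Skin genes took 0.338% in alpelisib 1. Muscle was thus highest on the nintedanib side and fat on the other side, so results are also given without these libraries.

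**Figure D1:**
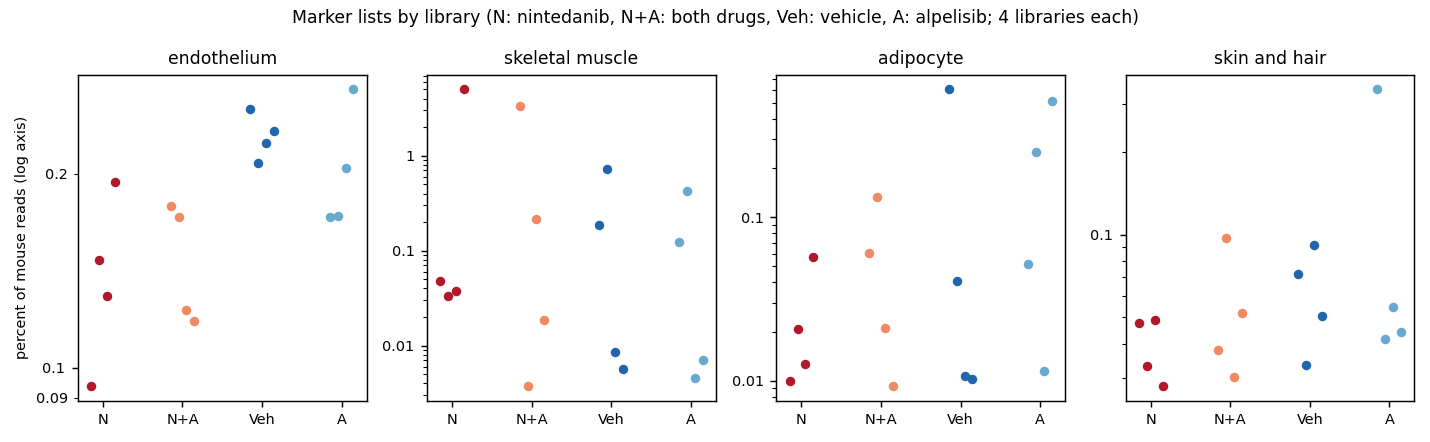
Percent of mouse reads taken by endothelial, skeletal muscle, adipocyte and skin genes, 1 point per library by group (n = 4 each), on log axes. Muscle stands out in nintedanib 4 (5.0%) and combination 1 (3.32%), fat in vehicle 1 (0.604%) and alpelisib 4 (0.513%), and skin in alpelisib 1 (0.338%).

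In tumours given nintedanib, vessel genes were lower, among them Notch4, Mcam, Esam, Cdh5, Plxnd1 and Col4a1, while Id2, the B-cell chemokine Cxcl13, the matrix gene Cilp, the stefin gene Gm5483 and the respiratory chain gene Ndufs4 were higher. In all, 17 genes had a limma adjusted p under 0.05, or 0.0972% of those tested. Of these, 5 were higher (0.0286%) and 12 lower (0.0686%). At an unadjusted p under 0.05 there were 769 higher genes (4.40%) and 770 lower genes (4.40%), or 8.80% in all. The log2 change was above 0 for 52.5% of genes, and the median log2 change of all genes was 0.02. Changes were fitted on log2(value + 1), which understates the change of low genes. Of the 17 genes, 6 had nintedanib and other libraries that did not overlap at all, namely Id2, Mcam, Mest, Cdc42ep1, Col4a1 and Ndufs4, among 13 such genes in the whole table (0.0744%).

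Count models run on the recovered reads called 12 genes in edgeR (0.0686%), 10 in limma-voom (0.0572%) and 158 in DESeq2 (0.904%). How many genes passed in limma depended on single libraries. It was 9 without nintedanib 3, combination 3, vehicle 1, alpelisib 2 or alpelisib 4, 10 without nintedanib 2 or vehicle 3, and 31 without combination 1. The others of these fits gave 12 to 24. In each of the 16 fits 9 genes passed, namely Id2, Notch4, Mcam, Mest, Cxcl13, Trp53i11, Gm5483, Cilp and Cdc42ep1. Without the 2 muscle-rich libraries 54 genes passed (13 higher, 41 lower), which included 16 of the 17, all but Ndufs4. Without the 4 libraries richest in fat transcripts 1 gene passed (0.00591%), Trp53i11. When mouse values were rescaled by the sum of human and mouse reads, the median of all genes moved up by 0.101 on the log2 scale and 3 genes passed (0.0175%), all higher (Id2, Cxcl13 and Gm5483), although all 17 kept their sign.

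**Figure D2:**
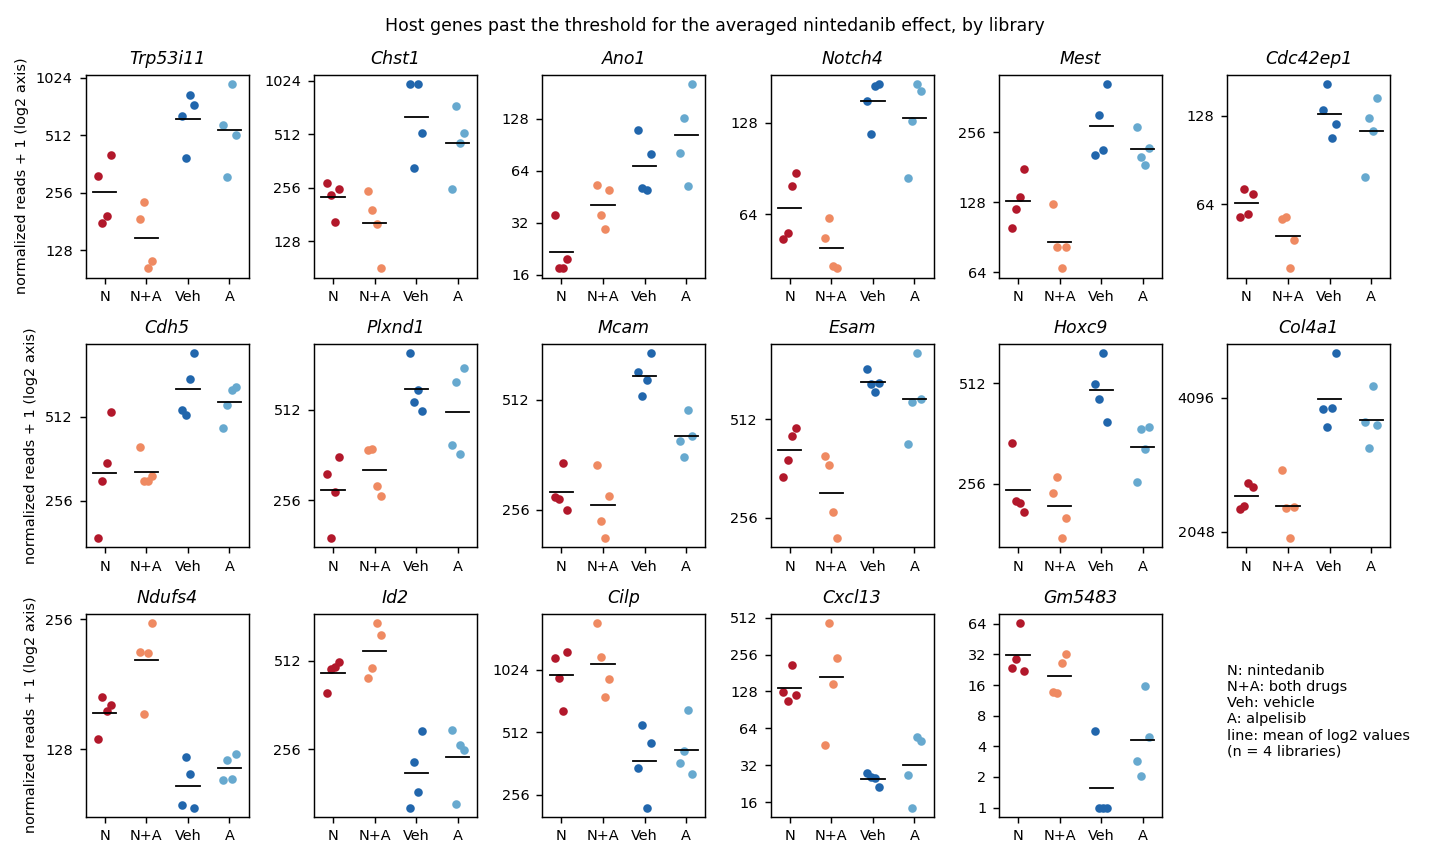
Values of the 17 genes with a limma adjusted p under 0.05, plotted as normalized reads + 1 on a log2 axis with 1 point per library. Each panel has the nintedanib and combination groups left of vehicle and alpelisib, and a line marks each group's mean of log2 values (n = 4). Id2, Cxcl13, Cilp, Gm5483 and Ndufs4 sit higher with nintedanib, and the other 12 sit lower.

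Genes of endothelial cells lay lower as a list. Of 27 pan-endothelial genes, 25 had a log2 change below 0 and 18 had an unadjusted p under 0.05 with a lower value, against 4.40% of all genes, while none was higher at that level. Their median log2 change was -0.59, against 0.02 for all genes. The share of 4.40% of all genes in each direction also stands beside the counts of the lists below with all libraries. Cdh5, or VE-cadherin, the adhesion protein of endothelial junctions, had values of 187 to 534 (median 307) with nintedanib and 467 to 865 (median 602) without. A single nintedanib library, nintedanib 4, reached into the range of the others. Its log2 change was -0.91 (SE 0.18, limma adjusted p 0.0479). Esam, another adhesion molecule of endothelial junctions, had values of 221 to 482 (median 377) with nintedanib and 430 to 816 (median 638) without. Here 2 nintedanib libraries overlapped the others, and the log2 change was -0.82 (SE 0.15, limma adjusted p 0.0343). Mmrn2, an endothelial matrix protein, had values of 165 to 502 (median 313) with nintedanib and 412 to 600 (median 545) without, with a log2 change of -0.82 (SE 0.19) that did not pass (limma adjusted p 0.113).

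The summed value of the 27 endothelial genes was 5013 to 9196 (median 6820) with nintedanib and 7773 to 11540 (median 10710) without, so the groups overlapped. In bulk tumours, fewer endothelial cells and less RNA of these genes per cell cannot be told apart. Neither Cdh5 nor Esam held in every fit that left out 1 library, and the list then had 0 to 5 genes past the threshold. It had 5 without nintedanib 4, 1 without combination 2, combination 4 or alpelisib 3, 2 or 3 without combination 1, vehicle 2 or alpelisib 1, and 0 without any of the other libraries. In the same fits 15 to 19 of the 27 genes were lower at an unadjusted p under 0.05 and the median was between -0.66 and -0.50. Without the muscle-rich libraries 7 passed and the median was -0.72, and without the fat-rich libraries none passed and the median was -0.55. No human gene of the same symbol tracked its mouse counterpart at a Pearson r over 0.7 across libraries among the 27, against 7.90% of all 13640 pairs.

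Tip-cell and sprouting genes also lay lower. Of 14 tested out of 15 listed, 13 lay below 0, and the median log2 change was -0.68. At an unadjusted p under 0.05, 10 were lower, against 4.40% of all genes. That count was 10 whichever library was left out. Mcam (CD146), an adhesion molecule of endothelium and pericytes and a coreceptor of VEGFR2, had values of 213 to 342 (median 275) with nintedanib and 357 to 686 (median 502) without. Every nintedanib library lay below every other library. The log2 change was -0.85 (SE 0.12, limma adjusted p 0.0057). Plxnd1, the endothelial receptor of semaphorin 3E, had values of 191 to 379 (median 298) with nintedanib and 363 to 787 (median 568) without. In 2 nintedanib libraries it overlapped the others, and its log2 change was -0.88 (SE 0.17, limma adjusted p 0.0479). Plxnd1 passed without nintedanib 4, combination 1, combination 2, alpelisib 1 or alpelisib 3, and not without any other single library.

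Dll4, the Notch ligand of tip cells, had values of 35.4 to 77.5 (median 59.1) with nintedanib and 75.6 to 186 (median 107) without. Its log2 change of -1.05 (SE 0.21) lay just outside the threshold (limma adjusted p 0.0574). Esm1, Angpt2 and Apln, 3 further tip-cell genes chosen after their values were seen, had log2 changes of -1.31 (SE 0.33), -0.73 (SE 0.23) and -0.63 (SE 0.18). None of these passed (limma adjusted p 0.166, 0.304 and 0.212), and the sides overlapped in each. For Esm1, nintedanib 2, combination 2 and combination 4 lay within the range of the others. For Angpt2 these were nintedanib 4, combination 1 and combination 3. For Apln they were all libraries given nintedanib except nintedanib 3.

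Notch4 was the called vessel gene with the largest change. This endothelial Notch receptor had values of 41.6 to 86.3 (median 53.5) with nintedanib and 83.1 to 171 (median 156) without. All nintedanib libraries but nintedanib 4 lay below every other library. The log2 change was -1.29 (SE 0.19, limma adjusted p 0.0057), and it passed in all fits that left out 1 library. Among 18 genes of the vascular Notch pathway, 14 lay below 0, 9 were lower and 1 higher at an unadjusted p under 0.05, and the median log2 change was -0.39. Nrarp, a feedback inhibitor induced by Notch, had values of 75.4 to 126 (median 115) with nintedanib and 112 to 277 (median 156) without, a log2 change of -0.58 (SE 0.17, limma adjusted p 0.235). Rbpj, the transcription factor of the pathway and its 1 higher gene, had values of 362 to 659 (median 485) with nintedanib and 293 to 431 (median 377) without, a log2 change of 0.38 (SE 0.14, limma adjusted p 0.403). Notch1 and Notch3, chosen after their values were seen, had log2 changes of -0.23 (SE 0.15) and -0.15 (SE 0.25). Notch4 passed and neither of these receptors did, and the difference between receptors was not tested.

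Among 14 basement membrane genes, 11 lay below 0 and 5 were lower at an unadjusted p under 0.05. Col4a1, a chain of type IV collagen, had values of 1979 to 2814 (median 2331) with nintedanib and 3161 to 5164 (median 3743) without. The groups did not overlap. Its log2 change was -0.68 (SE 0.13, limma adjusted p 0.0418), and it passed without nintedanib 4, combination 1, combination 4 or vehicle 2 and not without any other single library. Col4a2, the partner chain in the same collagen, had values of 883 to 1727 (median 1504) with nintedanib and 1774 to 3395 (median 2455) without, again with no overlap. Its log2 change of -0.83 (SE 0.17) fell short of the threshold (limma adjusted p 0.0574). Col18a1, the collagen from which endostatin is cut, had values of 328 to 589 (median 461) with nintedanib and 526 to 1112 (median 758) without, a log2 change of -0.73 (SE 0.15, limma adjusted p 0.0678). Nid1 and Lama4, other parts of the same membrane, were chosen after their values were seen and had log2 changes of -0.0042 (SE 0.17) and -0.13 (SE 0.15). Nid2, Lama5 and Hspg2, also chosen after their values were seen, lay lower. Nid2 was at -0.55 (SE 0.15, limma adjusted p 0.2), Lama5 at -0.40 and Hspg2 at -0.39, while 3 members of the list lay above 0. The list median was -0.17, and -0.10 without nintedanib 4. Of the 5 lower genes 3 were the collagen chains Col4a1, Col4a2 and Col18a1, and another was Nid2. Whether the collagen chains differ from the other members was not tested.

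Taking the endothelial, tip-cell, Notch and basement membrane lists as 1 set gave 71 genes, of which 61 lay below 0. The lists were chosen with earlier results of these data known, so counts in this set are a description. The venous, lymphatic, pericyte and smooth muscle lists, with medians of 0.13, 0.13, -0.15 and -0.34, were not part of it. At an unadjusted p under 0.05, 40 of the 71 genes were lower and 1 was higher, against 4.40% of all genes in each direction. The adjusted threshold was passed by 6 (Notch4, Mcam, Esam, Col4a1, Cdh5 and Plxnd1). The median log2 change was -0.46, and -0.53 to -0.41 when 1 library was left out, with 35 to 39 genes lower at an unadjusted p under 0.05. Those past the adjusted threshold then numbered 10 without nintedanib 4 or combination 1, 3 without vehicle 3, and 2 without nintedanib 1, nintedanib 2, nintedanib 3, combination 3, vehicle 1, vehicle 4, alpelisib 2 or alpelisib 4. Without the muscle-rich libraries 41 were lower and 15 passed, against 5.29% of all genes lower at that level. Without the fat-rich libraries 35 were lower and none passed, against 2.92% of all genes, and the median was -0.54. With scaling to human plus mouse reads 27 were lower, against 1.85% of all genes, and the median was -0.35.

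**Figure D3:**
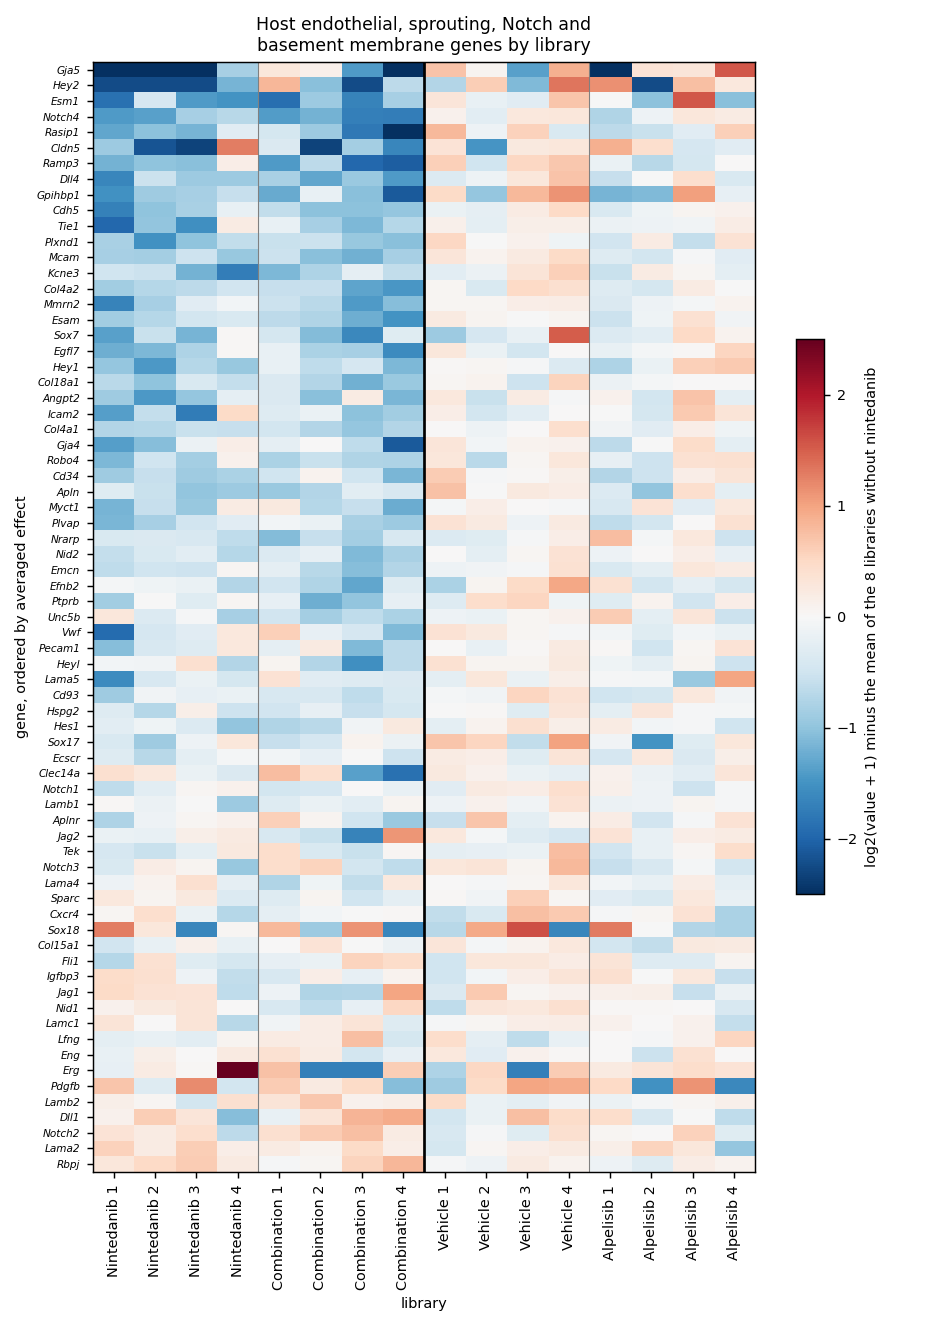
Log2 difference from the mean of the 8 libraries without nintedanib, for the 71 genes of the endothelial, tip-cell, Notch and basement membrane lists (rows, ordered by change) in each library (columns, by group). Blue stands for lower values, and 61 of the 71 genes have an averaged log2 change below 0.

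The receptors that nintedanib inhibits were tested as transcripts, and no member of this list passed. Of 8 genes, 7 lay below 0 and 3 were lower at an unadjusted p under 0.05, which were Pdgfrb, Flt4 and Kdr. The count was 1 without nintedanib 1, nintedanib 3 or alpelisib 1. Pdgfrb, the PDGF receptor of pericytes, had values of 437 to 886 (median 734) with nintedanib and 723 to 1060 (median 867) without, a log2 change of -0.35 (SE 0.14, limma adjusted p 0.467). Kdr (VEGFR2), the main VEGF receptor of blood endothelium, had values of 266 to 445 (median 344) with nintedanib and 308 to 730 (median 419) without, a log2 change of -0.32 (SE 0.14, limma adjusted p 0.54). Flt4 (VEGFR3), the receptor of lymphatic endothelium and sprouts, had values of 32.4 to 222 (median 70.9) with nintedanib and 87.1 to 268 (median 122) without, a log2 change of -0.87 (SE 0.36, limma adjusted p 0.505). The groups overlapped in all 3.

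Flt1 (VEGFR1) had a log2 change of -0.21 (SE 0.19). It was 0.23 under alpelisib and -0.65 without it, a difference with an unadjusted p of 0.036. Pdgfra, the PDGF receptor of fibroblasts and the 1 receptor above 0, had values of 338 to 940 (median 671) with nintedanib and 300 to 637 (median 472) without, a log2 change of 0.41 (SE 0.20, limma adjusted p 0.573). The FGF receptors Fgfr1, Fgfr2 and Fgfr3 had log2 changes of -0.13 (SE 0.16), -0.37 (SE 0.28) and -0.61 (SE 0.54). Fgfr1 was at 0.05 without the 2 muscle-rich libraries.

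Among 16 host genes for ligands and coreceptors of these pathways, 9 lay above 0, and 2 were higher at an unadjusted p under 0.05, Fgf18 and Vegfa. Fgf18, a ligand of FGF receptors, had values of 11.8 to 39.8 (median 24.1) with nintedanib and 1.04 to 24.1 (median 8.61) without, a log2 change of 1.58 (SE 0.44, limma adjusted p 0.21). Vegfa and Pgf, ligands of VEGF receptors, had log2 changes of 0.62 (SE 0.27) and 0.78 (SE 0.38), with limma adjusted p of 0.527 and 0.576. Mouse and human Vegfa values correlated at 0.86 across the 16 libraries. That count of 2 was 4 without nintedanib 4, and 1 without nintedanib 3, combination 3, combination 4, vehicle 1, vehicle 2, alpelisib 2 or alpelisib 4.

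Among genes of mural cells, which wrap the vessel, Mcam was the 1 that passed the adjusted threshold, and endothelium carries it too. Of 16 pericyte genes tested, 10 lay below 0 and 3 were lower at an unadjusted p under 0.05 (5 without combination 1 or alpelisib 1), with none higher (1 without nintedanib 4, vehicle 3 or alpelisib 3). The median log2 change was -0.15, and -0.27 without combination 1. It was 0.0017 under alpelisib and -0.35 without alpelisib, and the difference between these medians was not tested. The summed value of the list lay the other way, at 6773 to 12850 (median 9520) with nintedanib and 3931 to 11190 (median 7647) without. Ndufa4l2, a mitochondrial protein of pericytes that is also a target of HIF-1, was chosen after its values were seen as the largest part of that sum. It had medians of 5511 with nintedanib and 4797 without and a log2 change of 0.58 (SE 0.35, limma adjusted p 0.661). Abcc9, a potassium channel subunit typical of pericytes, had a log2 change of -0.45 (SE 0.21). Of 13 smooth muscle genes, 9 lay below 0 and 5 were lower at an unadjusted p under 0.05, with none past the adjusted threshold and a median of -0.34. Acta2, the smooth muscle actin that activated fibroblasts also make, had values of 3874 to 8666 (median 6464) with nintedanib and 7138 to 10550 (median 8548) without, a log2 change of -0.48 (SE 0.17, limma adjusted p 0.371). Myh11, the myosin heavy chain of smooth muscle, had a log2 change of -0.65 (SE 0.22, limma adjusted p 0.352). Lists of venous or activated endothelium (8 genes) and of lymphatic endothelium (7 tested of 8) had 5 genes above 0 in each, against 52.5% of all genes. Their median log2 changes were both 0.13. When 1 library was left out, these medians ranged over 0.0034 to 0.25 and -0.25 to 0.32. Under alpelisib the venous median was -0.08 and the lymphatic median -0.30. Without alpelisib they were 0.19 and 0.35, and the difference between these medians was not tested. Each list had 1 gene lower at an unadjusted p under 0.05, Ephb4 and Flt4, and none higher. In the lymphatic list the count of lower genes was 0 without nintedanib 1, nintedanib 3, combination 2, combination 4, vehicle 1, alpelisib 1 or alpelisib 2, and 1 gene was higher without combination 4 or alpelisib 3. In the venous list 1 was higher without combination 4 or vehicle 2.

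Id2 had the smallest p of the 17484 genes. It encodes an inhibitor of basic helix-loop-helix factors, is a target of BMP signalling in many cells, and is high in NK cells and other innate lymphoid cells. Its values were 397 to 688 (median 485) with nintedanib and 161 to 297 (median 243) without, so every nintedanib library lay above every other one. The log2 change was 1.16 (SE 0.15, limma adjusted p 0.00493), or 2.24-fold. No other gene of the BMP and Id list passed with all libraries. Of 16 tested, 7 lay above 0 and Id2 was the 1 gene higher at an unadjusted p under 0.05 (1 of 2 without nintedanib 3, combination 1, combination 4, vehicle 3 or alpelisib 3). Id1, its close relative, had values of 150 to 260 (median 190) with nintedanib and 181 to 388 (median 330) without, a log2 change of -0.62 (SE 0.18, limma adjusted p 0.227). Bmp4, a ligand of the pathway, had values of 22.3 to 169 (median 59.8) with nintedanib and 76.9 to 173 (median 135) without, a log2 change of -1.24 (SE 0.32, limma adjusted p 0.177). Human and mouse values of the called genes with a human counterpart correlated at -0.25 to 0.66 across libraries.

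Other genes that fell belong to no single pathway. Mest, an imprinted gene expressed from the paternal copy and linked to growth, had values of 65.4 to 176 (median 108) with nintedanib and 184 to 412 (median 216) without. The groups did not overlap, and the log2 change was -1.20 (SE 0.18, limma adjusted p 0.0057). Of 15 imprinted growth genes tested, 11 lay below 0 and 3 were lower at an unadjusted p under 0.05 (1 without combination 3), the others being Nnat at -2.33 (SE 0.97) and Grb10 at -0.30 (SE 0.13). Cdc42ep1, an effector of the small GTPase Cdc42 that shapes the actin skeleton, had values of 37.8 to 71.0 (median 56.9) with nintedanib and 78.4 to 163 (median 122) without. It showed no overlap, and the log2 change was -1.10 (SE 0.17, limma adjusted p 0.0057).

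Hoxc9, a homeobox factor of positional identity, had values of 176 to 340 (median 225) with nintedanib and 258 to 629 (median 384) without, a log2 change of -0.79 (SE 0.15, limma adjusted p 0.0371). In 2 nintedanib libraries it overlapped the others. It lost its call without nintedanib 2, nintedanib 3, nintedanib 4, combination 3, vehicle 1, vehicle 3, alpelisib 2 or alpelisib 4. Of 8 Hoxc genes tested, 6 lay below 0, and Hoxc6 and Hoxc8 had log2 changes of -0.51 (SE 0.22) and -0.61 (SE 0.29). Genes of this cluster overlap each other and antisense transcripts, and whether counting used strand is not given in the sources used here, so reads may be shared among them.

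A further 3 lower genes lay outside the naming rule and were chosen after their values were seen. Trp53i11, a p53-induced gene, had values of 102 to 405 (median 189) with nintedanib and 310 to 952 (median 612) without, with 2 nintedanib libraries inside the range of the others. Its log2 change was -1.58 (SE 0.24, limma adjusted p 0.0057). Chst1, a carbohydrate sulfotransferase, had values of 89.2 to 271 (median 212) with nintedanib and 252 to 986 (median 521) without, a log2 change of -1.50 (SE 0.26, limma adjusted p 0.0177), which it lost without nintedanib 3, combination 3, vehicle 1, vehicle 3, alpelisib 2 or alpelisib 4. Ano1, a calcium-activated chloride channel, had values of 16.4 to 51.8 (median 31.6) with nintedanib and 48.3 to 204 (median 79.7) without, a log2 change of -1.50 (SE 0.28, limma adjusted p 0.0449). Ano1 passed without nintedanib 1, combination 1, combination 4, vehicle 2 or alpelisib 3, and not without any other single library.

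Cilp, a matrix protein of cartilage and fibroblasts, had values of 646 to 1723 (median 1054) with nintedanib and 221 to 651 (median 390) without. A single nintedanib library reached the range of the others, and the log2 change was 1.38 (SE 0.21, limma adjusted p 0.0057), or 2.60-fold. Of 19 fibroblast genes, 14 lay above 0 and 5 were higher at an unadjusted p under 0.05 (8 without nintedanib 4, 9 without alpelisib 3), with none lower. The median log2 change was 0.24, and 0.44 without alpelisib 3. Dcn, the small proteoglycan decorin, had values of 2805 to 6392 (median 4512) with nintedanib and 1640 to 5437 (median 2177) without, a log2 change of 0.77 (SE 0.24, limma adjusted p 0.282). Mfap5, a microfibril protein, had a log2 change of 0.62 (SE 0.20, limma adjusted p 0.304). None of 15 collagen genes of the interstitial matrix reached an unadjusted p under 0.05 in either direction, and 1 was lower without nintedanib 4, combination 1, combination 4, vehicle 1, vehicle 3 or alpelisib 3. Among 14 matrix metalloproteinases and their inhibitors 1 was lower at that level, Mmp14, the membrane-bound collagenase, at -0.64 (SE 0.19, limma adjusted p 0.226).

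Ndufs4, a subunit of respiratory complex I, had values of 134 to 250 (median 165) with nintedanib and 92.8 to 124 (median 110) without. The groups did not overlap, and the log2 change was 0.70 (SE 0.13, limma adjusted p 0.0479). It kept its call in 2 of the 16 fits that left out 1 library, without combination 2 or vehicle 2, and lost it without any one of the others.

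Cxcl13, the chemokine that draws B cells through Cxcr5, had values of 45.8 to 463 (median 137) with nintedanib and 13.5 to 53.7 (median 25.2) without. The range was widest among the nintedanib libraries, 1 of which overlapped the others. Its log2 change of 2.41 (SE 0.36, limma adjusted p 0.0057) corresponds to 5.32-fold. All 11 tested genes of the B-cell and lymphoid list lay above 0, and 3 were higher at an unadjusted p under 0.05 (5 without alpelisib 4). Ltb, the lymphotoxin subunit that organises lymphoid stroma, had values of 49.7 to 142 (median 84.6) with nintedanib and 32.6 to 72.7 (median 45.5) without, a log2 change of 0.93 (SE 0.23, limma adjusted p 0.159). Cxcr5 itself had a log2 change of 1.13 (SE 0.46).

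Other leukocyte lists also lay mostly above 0, with none of their members past the adjusted threshold by limma. Among 17 NK and T cell genes, 14 lay above 0 and 8 were higher at an unadjusted p under 0.05, with 1 past the adjusted threshold by DESeq2 and 0 by edgeR. Their summed value was low, at 210 to 961 (median 256) with nintedanib and 137 to 251 (median 193) without. The 3 highest libraries were combination 2, nintedanib 4 and combination 3, of which nintedanib 4 was also muscle-rich, and the part of muscle tissue in this was not tested. Cd3e, part of the T cell receptor complex, was at 0 in 7 libraries and at most 69.9, in combination 2. Klrb1c (NK1.1) had values of 1.84 to 6.88 (median 4.48) with nintedanib and 0 to 2.73 (median 0) without, a log2 change of 1.71 (SE 0.43, limma adjusted p 0.166). These values are a few reads per library.

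All 14 CC chemokine genes lay above 0, and 7 were higher at an unadjusted p under 0.05. That count was 4 without combination 2, 2 without combination 3, 4 without alpelisib 4 and 1 without the fat-rich libraries. Ccl2, which attracts monocytes, had values of 178 to 1135 (median 426) with nintedanib and 124 to 406 (median 239) without, a log2 change of 0.82 (SE 0.32, limma adjusted p 0.459). Ccl5 had a log2 change of 1.09 (SE 0.40, limma adjusted p 0.407). Of 16 dendritic cell and MHC class II genes, 13 lay above 0 and 4 were higher at an unadjusted p under 0.05 (8 without combination 4, 7 without vehicle 1). H2-Ab1, a chain of MHC class II, had values of 2690 to 7822 (median 4260) with nintedanib and 2302 to 3910 (median 2844) without, a log2 change of 0.65 (SE 0.21, limma adjusted p 0.319). Of 19 macrophage genes tested, 3 were higher at that level (6 without combination 4), led by Mrc1, the mannose receptor, at 0.52 (SE 0.16, limma adjusted p 0.257).

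Gm5483, a gene of the stefin A cluster of cysteine protease inhibitors, had values of 12.4 to 64.5 (median 23.8) with nintedanib and 0 to 14.7 (median 1.46) without. It was at 0 in 3 vehicle libraries, and 2 nintedanib libraries lay within the range of the others. The fitted log2 change was 3.23 (SE 0.50, limma adjusted p 0.0057), and it was 4.66 with a pseudocount of 0.1. All 7 stefin A genes tested, of 9 in the table, lay above 0 and 5 were higher at an unadjusted p under 0.05 in each fit that left out 1 library. Their summed value was 47.6 to 257 (median 85.3) with nintedanib and 9.36 to 354 (median 16.6) without, the highest being alpelisib 1, which was also richest in skin genes; the part of skin in these values was not tested. These genes are near-identical copies, so reads may be split or shared among them. Stefin A genes are expressed by neutrophils. Of 15 neutrophil genes 11 lay above 0 and 4 below, with 4 higher and 1 lower at an unadjusted p under 0.05. None passed the adjusted threshold by limma or edgeR, and 3 were higher past it by DESeq2. In limma 1 passed without nintedanib 4, without combination 4 or without the muscle-rich libraries. The lower gene was Camp, an antimicrobial peptide of neutrophil granules named after its values were seen, with a log2 change of -1.32 (SE 0.59, limma adjusted p 0.546) and medians of 3.97 with nintedanib and 8.09 without. It was no longer at that level without nintedanib 2, nintedanib 3, combination 2, combination 4, vehicle 1, vehicle 3, vehicle 4 or alpelisib 3. S100a9, a calcium-binding protein abundant in neutrophils, had values of 334 to 1542 (median 910) with nintedanib and 273 to 541 (median 416) without, a log2 change of 0.94 (SE 0.22, limma adjusted p 0.123). The neutrophil median of 0.35 was 0.15 without nintedanib 3, which had the highest summed value of the list, 0.23 without vehicle 2 and 0.54 without nintedanib 1.

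Hypoxia and glycolysis genes lay higher. Of 25 tested, 24 lay above 0 and 12 were higher at an unadjusted p under 0.05, against 4.40% of all genes, with none past the adjusted threshold by limma or edgeR and 3 by DESeq2. In limma 1 passed without alpelisib 3 or without the muscle-rich libraries. The median log2 change was 0.56. Pgk1, a glycolytic kinase and a target of HIF-1, had values of 1125 to 1678 (median 1404) with nintedanib and 649 to 1270 (median 803) without, a log2 change of 0.68 (SE 0.15, limma adjusted p 0.113). Ldha, lactate dehydrogenase, and Pdk1, which holds pyruvate out of the mitochondria, had log2 changes of 0.56 (SE 0.15) and 0.82 (SE 0.21), each with a limma adjusted p of 0.177. Of these 25 genes, 16 (64%) followed the human gene of the same symbol at a Pearson r over 0.7 across libraries, against 7.90% of all pairs. Reads of conserved genes can map to both genomes, and the part of human reads in these mouse values was not tested. Without all genes of r over 0.7 the median was 0.38. The count of 12 was 6 without vehicle 2 and 17 without the muscle-rich libraries, against 4.61% of all genes. Without the fat-rich libraries it was 3, against 3.36% of all genes, and the median was 0.35. With scaling to the sum of human and mouse reads it was 17, against 6.25% of all genes.

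Mitosis genes lay lower. Of 22 genes, 20 lay below 0 and 10 were lower at an unadjusted p under 0.05, against 4.40% of all genes. The median log2 change was -0.54. It was -0.77 under alpelisib and -0.26 without alpelisib, and the difference between these medians was not tested. No mitosis gene passed the adjusted threshold by limma or edgeR, and 3 did by DESeq2. In limma 3 passed without nintedanib 4, and 1 without combination 1 or alpelisib 3. Ube2c, which drives the exit from mitosis, had values of 67.4 to 184 (median 103) with nintedanib and 169 to 339 (median 217) without. A single nintedanib library overlapped the others, and its log2 change was -0.98 (SE 0.19, limma adjusted p 0.0574). Plk1, a mitotic kinase, had values of 40.1 to 136 (median 68.3) with nintedanib and 95.5 to 270 (median 149) without, a log2 change of -1.15 (SE 0.24, limma adjusted p 0.0784). Of the 22 genes, 1 followed its human counterpart at r over 0.7, against 7.90% of all pairs. Their median r was 0.44, against 0.23 for all pairs, and the part of human reads in these values was not tested.

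**Figure D4:**
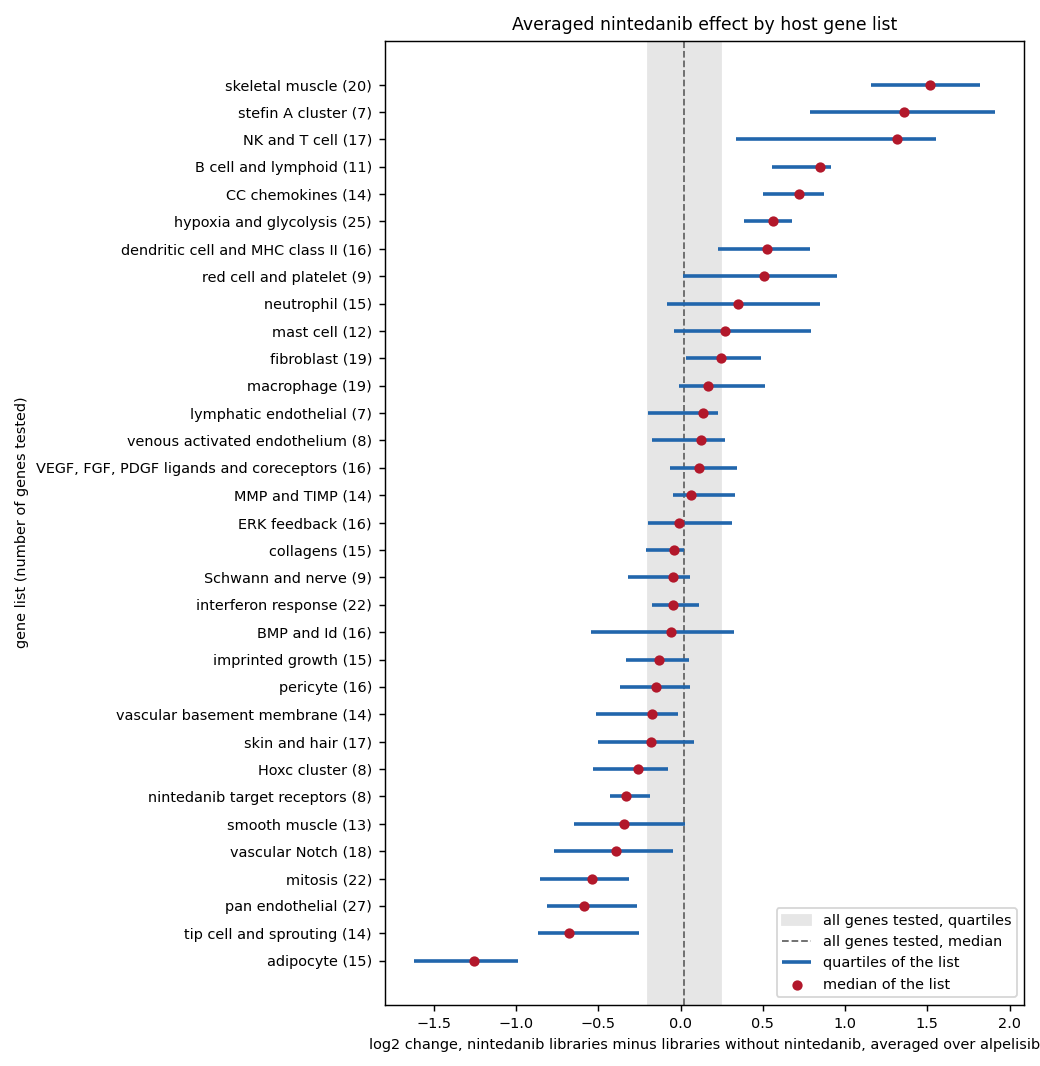
Median log2 change with nintedanib, averaged over alpelisib, for each gene list as a point, with the quartiles of its members as a line and the number of genes tested beside the name. The grey band and dashed line are the quartiles and median of all genes tested. Tip-cell (-0.68), endothelial (-0.59) and mitosis (-0.54) lists sit lowest apart from fat, and hypoxia (0.56), CC chemokine (0.72), NK and T cell (1.32) and stefin A (1.36) lists are among the highest, beside skeletal muscle (1.51).

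The remaining lists showed few members past an unadjusted p of 0.05. Over all genes, 4.40% were higher and 4.40% lower at that level. Of 20 skeletal muscle genes all lay above 0 and of 15 adipocyte genes all lay below 0, yet none reached that level with all libraries. The muscle median of 1.51 was -0.20 without the 2 muscle-rich libraries, and the adipocyte median of -1.26 was -0.06 without the 4 fat-rich ones. In the adipocyte list 7 genes were lower at that level without alpelisib 3 and 6 without combination 2. Counts at that level were 1 lower of 22 interferon response genes, 1 lower of 16 genes of ERK feedback, 1 higher and 1 lower of 12 mast cell genes, 2 higher of 9 red cell and platelet genes, 1 lower of 9 Schwann cell genes and none of 17 skin genes, and they ranged over 0 to 3 when 1 library was left out. Of the genes in these counts Mcpt1, a mast cell protease, had a change of -2.15 (SE 0.59, limma adjusted p 0.207), with values of 0 to 12.1 (median 4.30) with nintedanib and 3.73 to 50.1 (median 21.6) without. It went against its list, in which 9 of 12 genes lay above 0. The mast cell list had a median log2 change of 0.27 and a highest of 1.52.

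The effect of nintedanib could be read a second time within the averaged comparison, since its contrast under alpelisib (combination against alpelisib) and its contrast without alpelisib (nintedanib against vehicle) share no library. Because the 17 genes were chosen on the average of both, their agreement is a description. All 17 had the same sign and an unadjusted p under 0.05 in each contrast, with a median absolute log2 change of 1.20 under alpelisib and 1.11 without it. Id2 had log2 changes of 1.20 under alpelisib and 1.13 without it (SE 0.22 each), Notch4 of -1.41 under it and -1.16 without it (SE 0.26 each), and Cilp of 1.37 under it and 1.38 without it (SE 0.30 each). Gm5483 had log2 changes of 2.10 under it and 4.35 without it (SE 0.70 each), and this difference of -2.25 (SE 0.99) had the lowest unadjusted p of the 17, 0.0347 (limma adjusted p 0.9998). Over all genes, 57.8% had the same sign in both contrasts, and 74.8% of the 1007 genes at an unadjusted p under 0.05 under alpelisib had the same sign without it. The 71 genes of the joined endothelial, tip-cell, Notch and basement membrane lists had a median of -0.51 under alpelisib and -0.52 without it.

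In neither contrast alone did limma call a gene. There were 0 calls (0%) under alpelisib, with 1007 genes at an unadjusted p under 0.05 (5.76%), and 0 calls (0%) without alpelisib, with 1051 (6.01%). EdgeR and limma-voom also gave 0 in each, and DESeq2 gave 29 in each.

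**Figure D5:**
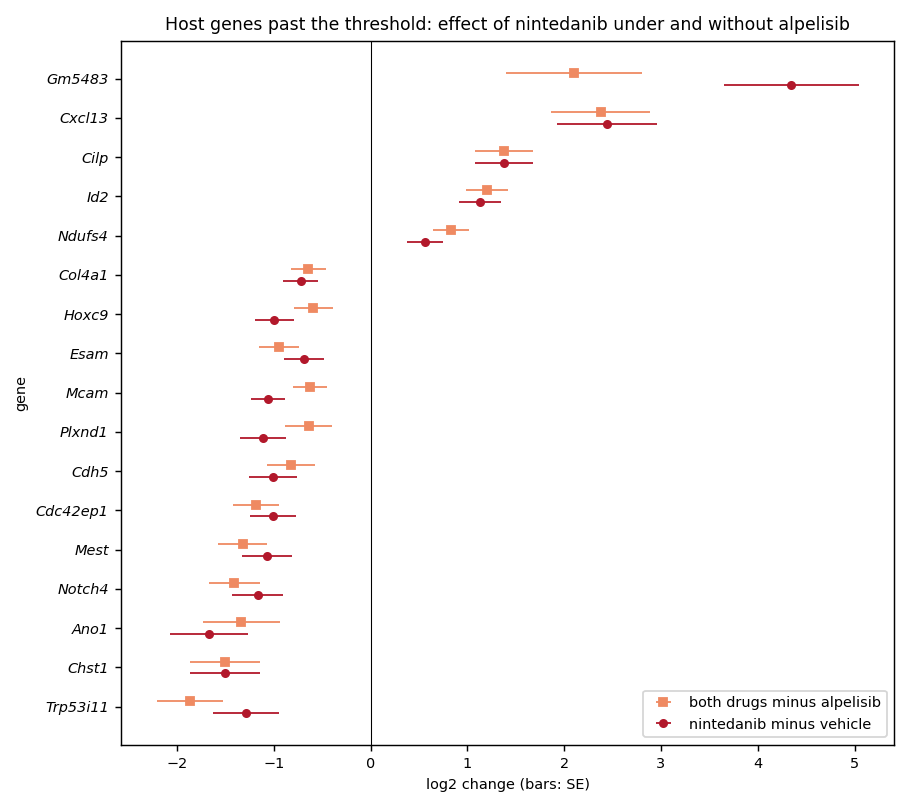
Log2 change with nintedanib for each of the 17 genes under alpelisib (combination against alpelisib) and without alpelisib (nintedanib against vehicle), with bars for the SE. Both points of every gene lie on the same side of 0, and Gm5483 has the widest gap (2.10 under alpelisib and 4.35 without it).

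The difference between these contrasts was tested for each gene as an interaction, and limma called 0 (0%), with 545 genes at an unadjusted p under 0.05 (3.12%) and a lowest adjusted p of 0.9998. EdgeR, DESeq2 and limma-voom called 0 as well. The 5 genes with the smallest p were Metrn, Dnm3os, Map4k2, Gm5577 and Tmem40. Metrn (meteorin) averaged 104 with nintedanib and 63.2 with the combination, against 39.8 with vehicle and 80.6 with alpelisib (n = 4 each), an interaction of -1.71 on the log2 scale (SE 0.39, limma adjusted p 0.9998). Dnm3os, an RNA antisense to Dnm3, averaged 100 with nintedanib and 303 with the combination, against 214 with vehicle and 103 with alpelisib (n = 4 each), an interaction of 2.74 (SE 0.62, limma adjusted p 0.9998). The other 3 had interactions of 2.75 (SE 0.69), 3.08 (SE 0.77) and -3.58 (SE 0.90) in that order. Stefin A genes had a median of 0.33 under alpelisib and 1.90 without it, and neutrophil genes of 0.04 under it and 0.85 without it. Stfa2 and S100a8 had unadjusted interaction p of 0.015 and 0.024, and neither passed the adjusted threshold.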

How the data were processed

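RNA of 16 ScaBER xenografts in nude mice was sequenced as 3′ libraries, and the mouse table was analysed, with the human table used for totals and same-symbol genes. The deposited values are signal, namely reads per gene that the authors divided by 1 size factor per library, as read from the values: 100% of values above 0 were whole multiples of 1 read within 0.01 read, so whole reads were recovered. The count test in edgeR on those reads called 12 genes. TopHat and the builds mm10 and hg19 are named per the submitters' processing notes; for the counting tool, annotation, strand and scaling, these sources say nothing. No column was left unused.

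A gene was tested when 4 or more libraries had it at a value of 1 or above. A mean per group was fitted to log2(value + 1) with limma 3.58.1 (trend) in R 4.3.3, and the averaged effect, the effect without and under alpelisib and their difference were tested, with Benjamini-Hochberg adjustment over all genes and a threshold of 0.05. The 2-sided exact permutation test of the mouse share exchanged libraries within alpelisib levels. Alternatives included DESeq2 1.42.0, edgeR 4.0.16 (quasi-likelihood) and voom from the recovered reads, other scalings and filters, and leaving out libraries; leaving out the 4 fat-rich libraries was chosen after seeing the data. Figures were drawn with matplotlib 3.10.9 in Python 3.11.15.

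The comparison and the 33 gene lists were chosen with earlier results of these data known. Genes eligible to be named were called genes without overlap between sides and of at least median level, the 3 members of smallest p in any list, all target receptors, and the 5 smallest p of the difference; 65 of these 106 genes are described, 1 further gene under this rule is not reported here, and genes added after their values were seen are marked so. In simulated data of 17483 genes, a shift of log2 1 was given to 100 genes and of log2 2 to 100 others. The averaged effect recovered 61 and 98 of them, and 4.22% of calls were unchanged genes. When nothing moved, 0 genes were called. The shifted genes were all drawn from genes at or above the median level. These rates therefore do not give the power for genes below that level, such as genes of few reads. The labels do not say whether replicates came from separate animals, and a p-value here reflects the spread among the sequenced samples, which may be technical. Levels of different genes were not compared, and no sequence or coordinate is printed, since no mouse reference was used here.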

Additional observations from a re-analysis of the deposited data

Results flagged for a closer look

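The lowest and highest library of each side of 8 was compared with its nearest neighbour. This was done for 88 of the genes named in the text and for the mouse share of reads. Genes were compared as log2(value + 1), and the values printed below are before the log. In 5 of the 178 groups so tested (2.81%) the gap, as a share of the range, exceeded the critical value of Dixon's test. Chance alone flags about 5% of groups, so these 5 are no more than chance gives. Bmp4 stood at 76.9 in alpelisib 2, below the next library at 124 among those without nintedanib, so its log2 change rests on a side with 1 library apart. Dnm3os stood at 25.1 in alpelisib 3, with the next library at 108, and it is among the genes with the smallest p for the difference between the contrasts. Fgfr3 was at 0 in combination 4, with the next nintedanib library at 3.26. In combination 4, Mtif3 stood high at 257.5 (next nintedanib library 98.7) and Ywhah stood low at 807.9 (next nintedanib library 1157). No gene's difference between the contrasts passed the adjusted threshold with all libraries and no covariate.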

How the results depend on the processing

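For the averaged effect, the 17 calls became 3 (all higher) with scaling to human plus mouse reads, 158 with DESeq2, 10 with limma-voom, 4 without the variance trend, 54 without the 2 muscle-rich libraries and 1 without the 4 fat-rich libraries, and 9 to 31 when 1 library was left out. Quantile normalization gave 24, edgeR 12, an additive model 25, no filter 12, a minimum value of 10 20, a pseudocount of 0.1 17, omission of the 1077 genes that track their human counterpart 24, and tissue scores as covariates 13. Under alpelisib, the 0 calls became 29 with DESeq2, 1 without the muscle-rich libraries, and 0 to 1 when 1 library was left out. Without alpelisib, the 0 calls became 29 with DESeq2, 2 without genes tracking their human counterpart, 3 without the muscle-rich libraries, 3 with tissue covariates, 1 without the fat-rich libraries, and 0 to 3 when 1 library was left out. The difference of the effects had 2 calls with tissue covariates, and 0 in each other fit. The cause of these shifts was not tested. Replicate numbers paired no samples (correlations of -0.192 to 0.0779 for nintedanib with vehicle and combination with alpelisib), and the fit with the replicate block called 12 genes, 11 of them among the 17. Among the 109 genes that were called or came under the naming rule, signs reversed for Map4k2 with a pseudocount of 0.1 (0.044) and Fgfr1 without the muscle-rich libraries (0.048). Reversals were not counted for the other genes named after their values were seen. The mouse share difference was 0.59 points without the muscle-rich libraries. With 3606008 reads in the shallowest library, genes of a few reads such as Klrb1c carry counting error that is large beside their level.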

Other observations

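The fit without nintedanib 4 and combination 1, the muscle-rich libraries, called 38 genes beyond the 17, and those named here were chosen after their values were seen. More vessel genes passed the adjusted threshold as lower in it, 15 of the 71 against 6 with all libraries. Nintedanib 4, left out here, lay above the mean of the libraries without nintedanib for Tie1, Egfl7 and Cldn5. It did so by 0.21, 0.04 and 1.27 on the log2 scale. With all libraries the log2 changes of these genes were -0.89, -0.81 and -1.16. Tie1, a receptor kinase of endothelium, had a log2 change of -1.19 (SE 0.17, limma adjusted p 0.00422), Egfl7, a factor secreted by endothelium, of -1.05 (SE 0.17, limma adjusted p 0.00659), and Cldn5, the claudin of endothelial tight junctions, of -1.70 (SE 0.33, limma adjusted p 0.0292). Dll4, Col4a2, Col18a1 and Mmrn2, which lay outside the threshold with all libraries, passed in this fit (limma adjusted p 0.0439, 0.0197, 0.0238 and 0.0158). The mitosis genes Ube2c and Plk1 were lower, at -1.16 (SE 0.18, limma adjusted p 0.00659) and -1.30 (SE 0.24, limma adjusted p 0.0158). Among the higher genes was Cd53, a tetraspanin of leukocytes, at 0.99 (SE 0.16, limma adjusted p 0.00967), and S100a9, at 0.99 (SE 0.20, limma adjusted p 0.0341).

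Outside the lists, 6 genes without a limma call also had sides that did not overlap. Tm2d1, Ccnh and Mtif3 were above the other libraries in every nintedanib library, with log2 changes of 0.71, 0.64 and 0.90. Apold1, an early response gene of endothelium, Tmem120a and Ywhah were below them, with log2 changes of -0.62, -0.62 and -0.47. Their limma adjusted p ranged from 0.158 to 0.25, and these genes were chosen after their values were seen.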
